A study of Homo sapiens with 6 samples.

Results

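The cyclins G and I are a branch of the cyclin family with 3 members measured here, CCNG1 (cyclin G1), CCNG2 (cyclin G2) and CCNI (cyclin I). They were read by every probe set annotated to one of these genes and to no other, which gave 9 of 54613 probe sets and 3 of 19775 genes: 1 probe set for CCNG1, 5 for CCNG2 and 3 for CCNI. The 3 genes were chosen on the difference between treated and control arrays, where CCNG2 stood near the top of all genes, and by family membership. Values of that contrast are therefore given for the members as a description, without a test.

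The cells were T47D, an established breast cancer cell line with luminal features. One group of 3 arrays came from cells given GDC-0941, an inhibitor of the class I PI3 kinases, for 6 hours at a dose the labels write as 1 mM, a unit that the array values cannot check. The other group of 3 came from control cells with no agent named, and the labels do not mention a solvent. Both groups are the same cell line, and no source used here says whether the replicates were separate cultures, so any p-value measures only the spread between these arrays, which may be technical.

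Cyclins share a fold, the cyclin box, through which the classical members bind and activate cyclin-dependent kinases. Cyclins G1, G2 and I carry the box but do not drive the cell cycle in the manner of cyclins D, E, A and B. CCNG1 is a target gene of the tumour suppressor p53, and its product binds the B' regulatory subunits of the phosphatase PP2A and the p53 antagonist MDM2. CCNG2 also binds PP2A, is linked to withdrawal from the cell cycle, and its gene is a known target of the FOXO transcription factors. AKT, acting downstream of PI3 kinase, phosphorylates these factors and holds them in the cytoplasm. CCNI is plentiful in cells that have stopped dividing, such as those of muscle and brain, and has been reported to act with the kinase CDK5.

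The 250 bases before the outermost annotated start site of each member are shown because the 3 genes lay on the same side of their controls to very different degrees. The sequences are RefSeq's, on GRCh38.p14, and all 3 genes had an entry. Capitals mark matches to GTAAAC, the core of the FOXO motif GTAAACA, or to the E-box CACGTG, on either strand. The GTAAAC core is part of the longer motif, so every match to GTAAACA would also be a match to the core. The E-box and the CCAAT box were chosen after the sequences were seen.
CCNG2, chr4:77156957-77157206, plus strand: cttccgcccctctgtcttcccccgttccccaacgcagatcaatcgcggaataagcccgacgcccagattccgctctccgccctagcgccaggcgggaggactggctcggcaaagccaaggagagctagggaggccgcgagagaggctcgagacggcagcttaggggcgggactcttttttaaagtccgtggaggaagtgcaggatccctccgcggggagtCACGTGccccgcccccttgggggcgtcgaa
CCNG1, chr5:163437321-163437570, plus strand: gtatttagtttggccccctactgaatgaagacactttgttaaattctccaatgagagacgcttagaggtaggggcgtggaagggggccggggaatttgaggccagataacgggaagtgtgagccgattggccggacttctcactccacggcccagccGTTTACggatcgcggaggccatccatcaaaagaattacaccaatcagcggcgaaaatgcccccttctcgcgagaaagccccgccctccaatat
CCNI, chr4:77075990-77076239, minus strand: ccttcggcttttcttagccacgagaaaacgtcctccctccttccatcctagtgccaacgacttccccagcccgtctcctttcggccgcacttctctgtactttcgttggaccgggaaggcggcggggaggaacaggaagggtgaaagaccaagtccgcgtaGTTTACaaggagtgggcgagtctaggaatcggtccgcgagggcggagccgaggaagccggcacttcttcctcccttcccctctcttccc

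None of these 3 windows held GTAAACA, which is present in 2.98% of 34943 annotated windows of this length. The shorter GTAAAC was found once in the CCNG1 window, 93 to 88 bases before the start, and once in the CCNI window, 89 to 84 bases before it, each on the opposite strand as GTTTAC. Of all windows 6.34% hold it, and the CCNG2 window did not. The CCNG2 window held 1 CACGTG, 30 to 25 bases before the start, a motif in 6.32% of windows. CCAAT, in 32.0% of windows on either strand, was found 4 times in the CCNG1 window and in neither of the others. These are matches of letters and not measured binding, and GC content was 65.6% in the CCNG2 window, 54.0% for CCNG1 and 60.0% for CCNI, against a median of 58.0% over all windows. CCNG1 and CCNI have a further annotated window each. That of CCNG1 overlaps the one shown, and that of CCNI held none of the motifs searched.

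Signals are on a log2 scale after RMA, a method that corrects background and brings the arrays to one distribution, so a value is read relative to the rest of that array. Median levels ranged from 7.34 to 7.38 over the 6 arrays. The correlation of 2 arrays was at least 0.9970 within a group and at most 0.9942 between groups. Differences were fitted with limma across the whole table, and a probe set or gene was called at a Benjamini-Hochberg adjusted p under 0.05. Of the called genes 43.7% were higher under GDC-0941 as deposited. The share was 86.4% when arrays were instead aligned on their hybridisation control probe sets, which raised the median difference of all genes by 0.17. All 11 luminal markers measured, from 10.12 for TFF1 to 14.27 for GATA3, lay above the median level of 7.36 over probe sets. Among them PGR, FOXA1 and CDH1 rose, by 0.42, 0.53 and 0.19, and KRT8, KRT18 and TFF1 fell, with differences of -0.23, -0.21 and -0.36. Above that level lay 3 of 4 basal markers measured, 4 of 6 fibroblast markers, 1 of 4 leukocyte markers and 2 of 4 endothelial markers. Each marker was read by its brightest probe set, and over genes read in that way the median level was 8.20. Of the markers counted above 7.36, KRT5 (8.04), MYLK (7.53), COL1A2 (7.54), COL3A1 (7.69) and VWF (8.18) lay below 8.20. Mean levels ran from 6.17 to 9.68 over the basal markers and from 4.09 to 10.68 over the fibroblast markers. They ran from 5.19 to 8.81 over the leukocyte markers and from 5.45 to 9.43 over the endothelial markers. PTPRC, the pan-leukocyte antigen, stood at 6.20. The lowest basal and fibroblast values were those of the keratin KRT14 and of LUM, a fibroblast proteoglycan. The highest were those of ACTA2 and COL1A1. One of 6 fibroblast markers, the collagen gene COL1A1, rose by 0.56 (0.22 with all its probe sets averaged), and the summed log2 level of the 6 ran from 45.6 to 46.5 on treated arrays and from 44.9 to 45.7 on controls. One of 4 basal markers, ACTA2 (smooth muscle actin), fell by 0.34 (with differences of -0.17 on the hybridisation control scale and -0.11 with all its probe sets averaged, both without a call), with sums of 30.9 to 31.2 on treated arrays and 31.8 on every control. The part of these markers in the results below was not tested.

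CCNG2 was far higher after GDC-0941, and CCNG1 and CCNI were modestly higher. By the brightest probe set of each gene, CCNG2 stood at 3.82 times its control signal, CCNG1 at 1.38 times and CCNI at 1.20 times. Of the 9 probe sets, 7 were called higher and none lower, where 8.88% of all 54613 probe sets were called higher and 9.89% lower (18.8% in either direction). On the same 7 probe sets the 3 treated arrays all lay above the 3 controls, as they did for 15.6% of all probe sets. The members were chosen with this contrast known, so nothing is read from these counts. The count fell to 6 without control replicate 1, when the CCNI probe set 208656_s_at was no longer called.

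**Figure D1:**
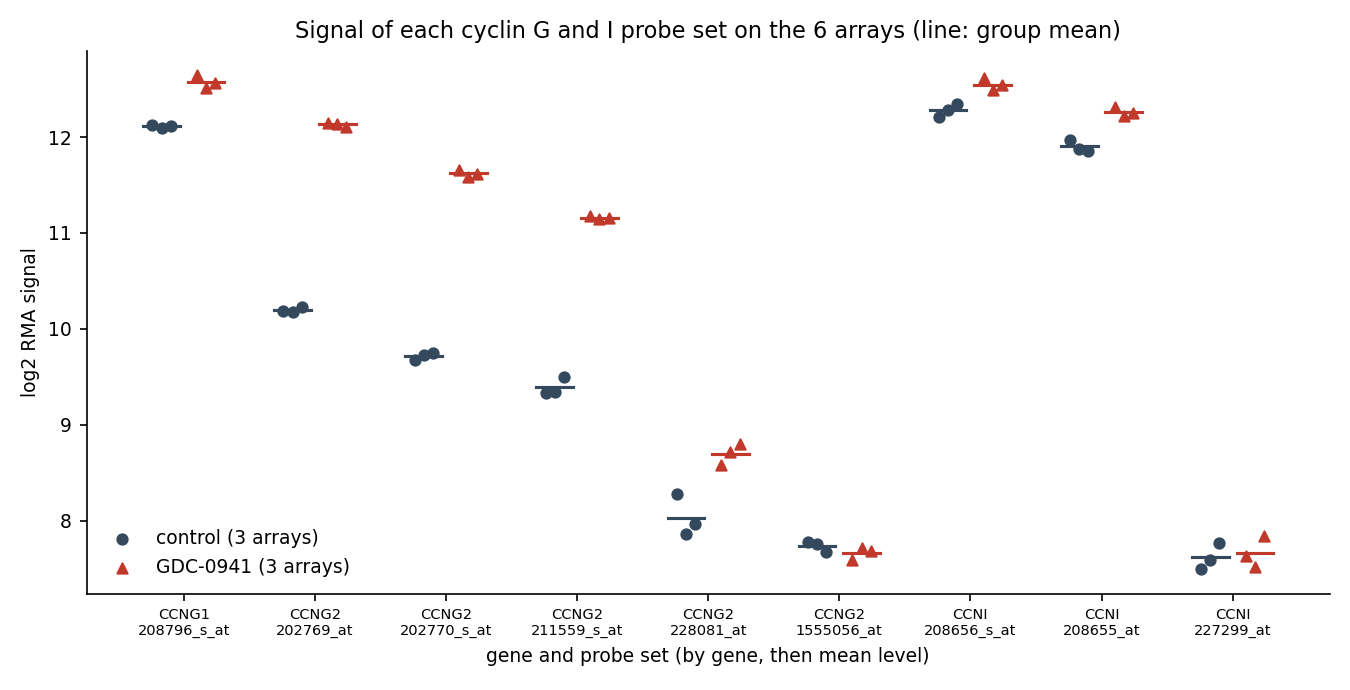
Log2 RMA signal (vertical axis) of the 9 cyclin G and I probe sets on 3 control arrays (circles) and 3 GDC-0941 arrays (triangles), with a line at each group mean. The groups are far apart for 202769_at, 202770_s_at and 211559_s_at of CCNG2, closer for the probe sets of CCNG1 and CCNI near a level of 12, and overlap for 1555056_at and 227299_at.

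CCNG2 was read by 3 bright probe sets, 1 dimmer one and 1 that did not separate the groups. On 202769_at, the brightest, the treated arrays gave 12.15, 12.14 and 12.11 and the controls 10.19, 10.18 and 10.23. Each group was tight, with an SD of 0.022 for treated and 0.026 for control arrays, and the gap between the lowest treated and the highest control array was 1.88. The means of 12.13 and 10.20 (n = 3 each) differed by 1.93 ± 0.06 (SE) on the log2 scale.

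On 202770_s_at the treated arrays gave 11.66, 11.59 and 11.62 and the controls 9.68, 9.72 and 9.74, a difference of 1.91 ± 0.06 (SE). On 211559_s_at they gave 11.17, 11.15 and 11.16 against 9.33, 9.34 and 9.50, a difference of 1.77 ± 0.06 (SE), and control replicate 3 was the highest control. Neither probe set had overlapping groups, and the folds were 3.75 and 3.41. Among all 54613 probe sets ordered by their difference, the 3 bright CCNG2 probe sets took places 7, 8 and 11 from the top. Probe sets ending in _s_at can match more than 1 transcript by the manufacturer's naming.

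The probe set 228081_at, with a mean level of 8.36, gave 8.58, 8.71 and 8.80 on treated arrays and 8.27, 7.86 and 7.96 on controls. The groups were separate by 0.31, and control replicate 1 was nearest to the treated arrays. Its difference was 0.67 ± 0.10 (SE), a fold of 1.59. Leaving out 1 array at a time gave 0.58 (without control replicate 2) to 0.79 (without control replicate 1).

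The probe set 1555056_at read CCNG2 at 7.59, 7.72 and 7.68 on treated arrays and 7.77, 7.76 and 7.68 on controls. The groups overlapped and the difference was -0.07 ± 0.06 (SE), or 0.10 with the arrays centred on hybridisation controls. Its mean level of 7.70 lay at percentile 57.5 of all probe sets, against percentile 95.3 for 202769_at. Within each array its level relative to 202769_at was -2.42, -2.42 and -2.55 on the controls and -4.56, -4.42 and -4.43 on the treated arrays. The 202770_s_at probe set kept its distance from 202769_at, with a mean of -0.48 on controls and -0.51 on treated arrays. Which part of the transcript each probe set reads was not analysed here.

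CCNG1 has 1 probe set, 208796_s_at, so its value rests on a single reading of the transcript. The treated arrays gave 12.64, 12.51 and 12.57 and the controls 12.12, 12.10 and 12.12. Every treated array lay above every control, by at least 0.39, and the controls spanned less than the treated arrays, with SDs of 0.013 and 0.065. The means of 12.58 and 12.11 (n = 3 each) differed by 0.46 ± 0.06 (SE), a fold of 1.38. Leaving out 1 array at a time gave 0.43 to 0.49.

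CCNI was read by 2 bright probe sets and 1 near the middle of all levels. On 208656_s_at the treated arrays gave 12.62, 12.49 and 12.54 and the controls 12.21, 12.29 and 12.35. The groups were separate by only 0.14, and control replicate 3 and treated replicate 2 were the nearest arrays. The means of 12.55 and 12.28 (n = 3 each) differed by 0.27 ± 0.06 (SE), a fold of 1.20.

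On 208655_at the treated arrays gave 12.31, 12.22 and 12.25 and the controls 11.97, 11.88 and 11.86, a difference of 0.36 ± 0.06 (SE) and a fold of 1.28. These groups were separate by 0.25. On 227299_at they gave 7.63, 7.51 and 7.84 against 7.50, 7.59 and 7.76, which overlapped fully, with a difference of 0.04 ± 0.09 (SE). The mean level of 227299_at was 7.64, at percentile 56.2 of all probe sets, and those of the bright pair lay at percentiles 98.6 and 98.0.

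The order of the differences was thus CCNG2, CCNG1 and CCNI by the brightest probe set of each. CCNG2 exceeded CCNG1 by 1.47 and CCNI by 1.67 on the log2 scale. CCNG1 exceeded CCNI by 0.20 on 208656_s_at. The second CCNI probe set, at 0.36 ± 0.06 (SE), lay nearer to the CCNG1 value of 0.46 ± 0.06 (SE).

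On the 6 brightest of the 9 probe sets, treated replicate 1 was the highest of the treated arrays in 6 and treated replicate 2 the lowest in 5. Over all probe sets, treated replicate 1 had the widest spread of levels (SD 2.04) and treated replicate 2 the narrowest (SD 1.98). The part of this spread in the members' values was not tested. Without treated replicate 1 the difference of 202769_at was 1.92, that of 208796_s_at 0.43 and that of 208656_s_at 0.23.

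Genes with a pattern like that of each member were found by the root mean square distance over the 6 arrays, after subtracting from each gene its own control mean. The nearest genes to CCNG2 were IRS2, which couples insulin receptors to PI3 kinase, at 0.095, CREBRF, a regulator of CREB3 proteins, at 0.0999, and KLHL24 at 0.155. YPEL2 and SKAP2 followed at 0.262 and 0.298. Among all other genes, 2 lay within 0.1 of CCNG2 and 8 within 0.5.

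**Figure D2:**
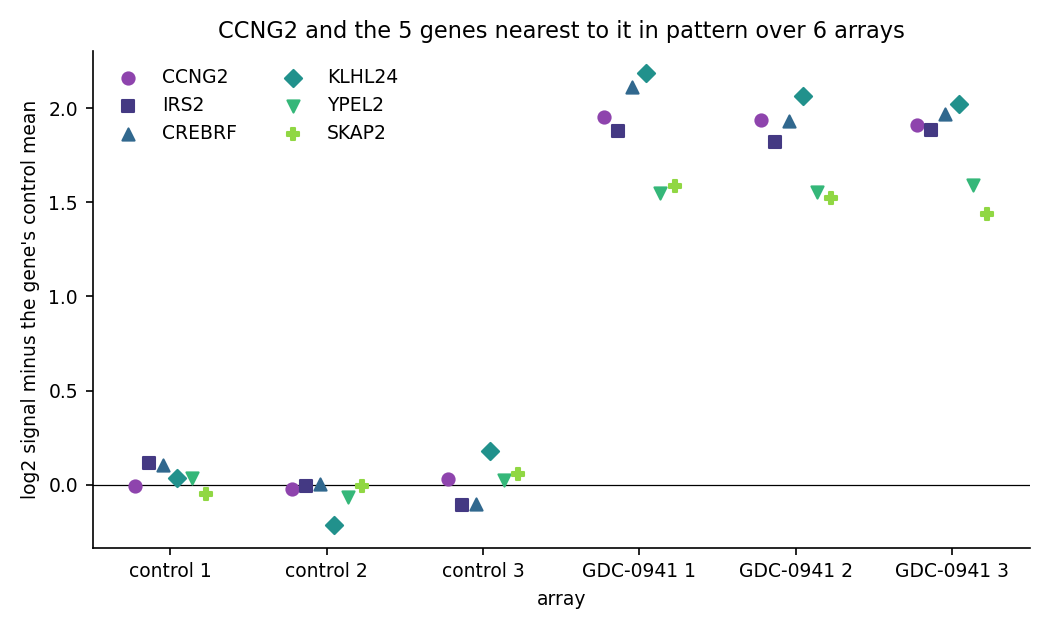
Log2 signal of CCNG2 and its 5 nearest genes minus each gene's control mean (vertical axis), on each of the 6 arrays (horizontal axis), 1 point per gene and array from its brightest probe set. All 6 genes lie between -0.22 and 0.18 on the controls. On each treated array KLHL24 is the highest, CCNG2, IRS2 and CREBRF lie below it, and YPEL2 and SKAP2 are the lowest.

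The IRS2 arrays read 10.13, 10.06 and 10.13 under GDC-0941 and 8.36, 8.24 and 8.14 in controls, and its difference was 1.86 against 1.93 for CCNG2. By contrast, 704 genes lay within 0.1 of CCNG1, the nearest being TRPM7 (a channel with a kinase domain) at 0.0095, ACTMAP, GALC, SH3BGR and TPRG1. Within 0.1 of CCNI lay 1724 genes, the nearest being ZER1 at 0.0176, LIMA1, RXRA (a retinoid receptor), CLIC6 and TRIP11. With 2 groups of 3 arrays this distance depends mostly on the size of the difference.

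Of the 25 other cyclin genes measured, 4 rose and 9 fell, where 12.1% of all 19775 genes rose and 15.6% fell, and 12 were not called. The list had a median difference of -0.06, against -0.02 over all genes. With the arrays centred on hybridisation controls 7 rose and 6 fell. None of the 25 had a difference as large and positive as that of CCNG2. CCNG2 was chosen with this contrast known, and only 3 of all 19775 genes, itself included, reached its difference. Nothing is therefore read from that comparison.

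The largest falls were those of CCND1 and CCND3, of the D-type cyclins, which start the cell cycle with CDK4 and CDK6. The remaining D-type gene, CCND2, differed by 0.01, and none of its 4 probe sets was called. CCND1 (cyclin D1) read 9.27, 9.28 and 9.36 on treated arrays and 10.50, 10.53 and 10.57 on controls, a difference of -1.24 ± 0.06 (SE, adjusted p = 1.43e-07 in limma). CCND3 read 9.85, 9.75 and 9.78 against 10.81, 10.84 and 10.98 (-1.08 ± 0.06 SE, adjusted p = 6.89e-07 in limma), though the other of its 2 probe sets was not called and the mean of both gave -0.52. CCNYL1, a relative of cyclin Y, read 7.02, 6.79 and 6.76 against 7.69, 7.75 and 7.77, a difference of -0.88 ± 0.07 (SE, adjusted p = 6.4e-06 in limma). In all 3 genes the treated arrays lay below every control, opposite in direction to CCNG2.

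The largest rises among the other cyclins were near that of CCNG1. CCNO, a cyclin needed to make multiple cilia, read 10.59, 10.47 and 10.63 against 10.00, 10.04 and 10.18, a difference of 0.49 ± 0.07 (SE, adjusted p = 0.00022 in limma). CCNL1, a cyclin tied to RNA splicing, rose by 0.35 (adjusted p = 0.00088 in limma) on its brightest probe set, but differed by 0.05 where probe sets without an _s_at, _x_at or _a_at ending were taken first. CCNT1, the cyclin of the elongation factor P-TEFb, rose by 0.28 (adjusted p = 0.00966 in limma), and by 0.16 without a call when all its probe sets were averaged. CCNA2, CCNB1 and CCNB2, the mitotic cyclins, differed by -0.03, 0.01 and 0.03 and were not called, although the other of the 2 CCNB1 probe sets was. The cyclin E genes CCNE1 and CCNE2 were among those called lower, with differences of -0.48 and -0.72. CCNE1 was called on 1 of its 2 probe sets and CCNE2 on 2 of 2.

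**Figure D3:**
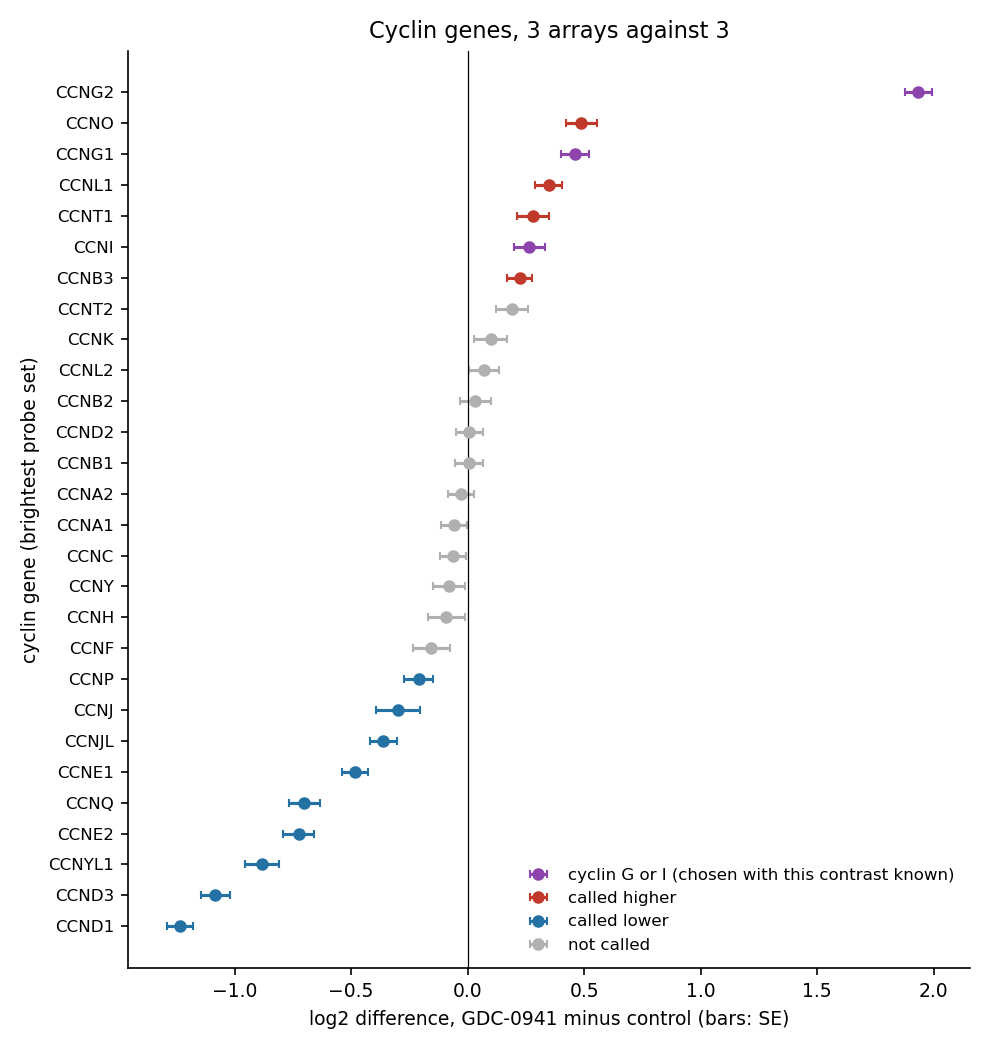
Log2 difference between GDC-0941 and control (horizontal axis) of the 25 other cyclin genes and of the cyclins G and I, by the brightest probe set of each gene, with limma standard errors as bars. CCNG2 lies alone at 1.93, CCNG1 and CCNI lie among the 4 cyclins called higher, and CCND1 and CCND3 lie at the low end. The cyclins G and I were chosen with this contrast known.

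Genes listed as partners of cyclins G or I, the PP2A subunits among them, moved in both directions. Whether each listed product binds these cyclins itself was not checked here. Of 15 partners measured 4 rose and 4 fell (26.7% each), where 12.1% of all genes rose and 15.6% fell. The list had a median of -0.01. Among the B' subunits of PP2A, through which cyclins G1 and G2 bind the phosphatase, PPP2R5C and PPP2R5A rose, the latter by 0.19, and PPP2R5B fell. PPP2R5D and PPP2R5E differed by 0.02 and -0.02 without a call, although 2 of the 5 PPP2R5E probe sets were called lower. PPP2R5C read 11.56, 11.40 and 11.40 on treated arrays and 11.05, 11.00 and 11.03 on controls, a difference of 0.43 ± 0.06 (SE, adjusted p = 0.000282 in limma), with 2 of its 6 probe sets called. It differed by 0.14 with all probe sets averaged and by 0.13 with unmarked ones first, without a call in either.

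The scaffold subunit PPP2R1B read 9.91, 9.87 and 9.90 on treated arrays and 10.31, 10.36 and 10.33 on controls, a difference of -0.44 ± 0.05 (SE, adjusted p = 8.33e-05 in limma). The unmarked probe set of PPP2R1B differed by 0.17 instead, without a call. MDM2, the ubiquitin ligase that degrades p53, rose by 0.37 ± 0.07 (SE, adjusted p = 0.00169 in limma), with 5 of its 10 probe sets called, and differed by 0.10 on an unmarked probe set. CDK5, reported with CCNI, differed by -0.15 without a call, and GAK, the cyclin G-associated kinase, by 0.01.

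The other named partners moved by small amounts: the catalytic subunits PPP2CA and PPP2CB by -0.20 and 0.20 and PPP2R5B by -0.20 on the log2 scale (adjusted p 0.0187 to 0.0359 in limma). These 3 calls and that of PPP2R5A (adjusted p = 0.0209 in limma) depended on single arrays. That of PPP2R5A was lost without treated replicate 3 or control replicate 1 or 2 (0.0728 to 0.0842). That of PPP2CA was lost without treated replicate 2 or 3 or control replicate 2 or 3 (adjusted p 0.0600 to 0.0704), that of PPP2CB without treated replicate 1 or 2 or control replicate 1 or 2 (0.0611 to 0.111), and that of PPP2R5B without treated replicate 3 or control replicate 2 or 3 (0.0699 to 0.0763). With arrays aligned on hybridisation controls PPP2CA and PPP2R5B each differed by -0.03 without a call, and the mean of all probe sets of PPP2CB gave 0.06 without a call. The partners that rose numbered 2 without control replicate 1 or 2. Those that fell numbered 2 without treated replicate 2 or 3 and 1 without control replicate 2 or 3.

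CCNG2 is one of a group of genes activated by FOXO factors, and most of the others listed here also rose. Of 30 other FOXO targets measured, 23 (76.7%) rose and none fell, where 12.1% of all genes rose and 15.6% fell. Their median difference was 0.67. The list was put together with earlier results of these data known and is not independent evidence of its direction. KLHL24 and IRS2, with differences of 2.09 and 1.86, lay on either side of CCNG2, and FBXO32, a ubiquitin ligase of muscle wasting, rose by 1.20. In the fit of all 19775 genes, 3 including CCNG2 itself had a difference at least as large as that of CCNG2. Without treated replicate 1 the superoxide dismutase gene SOD2, which differed by -0.49 without a call in the full comparison, was the 1 target called lower. SOD2 was read by 1 probe set at the low mean level of 6.57. Its treated arrays were scattered, at 6.81, 5.84 and 6.33, against 6.73, 6.75 and 6.97 on controls.

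CCNG1 is a p53 target, and the other p53 targets moved in both directions. T47D carries a mutated p53. Of 25 targets measured 10 rose and 6 fell, where 12.1% of all genes rose and 15.6% fell. The median difference of the 25 was 0.02. TP53INP1, a stress protein, read 11.12, 11.00 and 11.05 on treated arrays and 9.98, 9.96 and 10.00 on controls, a difference of 1.08 ± 0.06 (SE, adjusted p = 3.51e-07 in limma), though on 1 of its 3 probe sets only, and the mean of the 3 gave 0.39. GADD45A, also on the FOXO list, rose by 0.62, and RRM2B, a ribonucleotide reductase subunit, by 0.55.

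TIGAR, a phosphatase that lowers glycolytic flux, read 6.86, 6.69 and 6.74 against 7.72, 7.82 and 7.90, a difference of -1.05 ± 0.07 (SE, adjusted p = 1.35e-06 in limma). PMAIP1 (NOXA), a BH3-only protein, fell by 0.77, and the nuclease gene AEN fell by 0.71. CDKN1A, the CDK inhibitor p21, differed by 0.01, and BAX, a pore former in apoptosis, by 0.01, without a call. The 0.46 of CCNG1 lay between the values of TP53INP1, GADD45A and RRM2B and the list median.

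CCNG2 and CCNI lie side by side on chromosome 4 in the RefSeq order, with no other measured gene between them. On that chromosome SEPTIN11, a cytoskeletal GTPase next to CCNI, fell by 0.17 (adjusted p = 0.039 in limma) but differed by 0.0014 with arrays aligned on hybridisation controls. The chemokine gene CXCL13, next to CCNG2, differed by -0.01 at the low level of 5.01. Beyond CXCL13, CNOT6L, a deadenylase, read 9.59, 9.38 and 9.46 on treated arrays and 8.96, 9.02 and 9.10 on controls, a difference of 0.45 ± 0.07 (SE, adjusted p = 0.000385 in limma). Only that probe set of the 5 of CNOT6L was called, and its unmarked probe set differed by -0.05. The next genes were MRPL1, which fell by 0.25 but differed by -0.08 without a call on the hybridisation control scale, FRAS1 at 0.12 without a call, and ANXA3, which fell by 0.51.

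Beside CCNG1 on chromosome 5, GABRA6 differed by 0.01 and NUDCD2 by 0.12 without a call, the latter by 0.29 with a call on the hybridisation control scale. Farther along, HMMR, a mitotic spindle protein, rose by 0.38 and MAT2B, a subunit of methionine adenosyltransferase, by 0.34, while PTTG1 (securin) on the other side fell by 0.18. Of the 2 MAT2B probe sets 1 was called, and its unmarked one differed by 0.12 without a call. PTTG1 differed by -0.01 on the hybridisation control scale. Over all 20 measured neighbours of the 3 members, up to 5 on each side of each, the median difference was 0.03. Of these neighbours 4 rose and 4 fell (20.0% each), where 12.1% of all genes rose and 15.6% fell. The neighbours that fell numbered 2 when any single one of treated replicates 2 and 3 and the 3 control replicates was left out. In each of these cases the calls of SEPTIN11 (adjusted p 0.0743 to 0.121) and PTTG1 (0.0770 to 0.121) were lost.

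**Figure D4:**
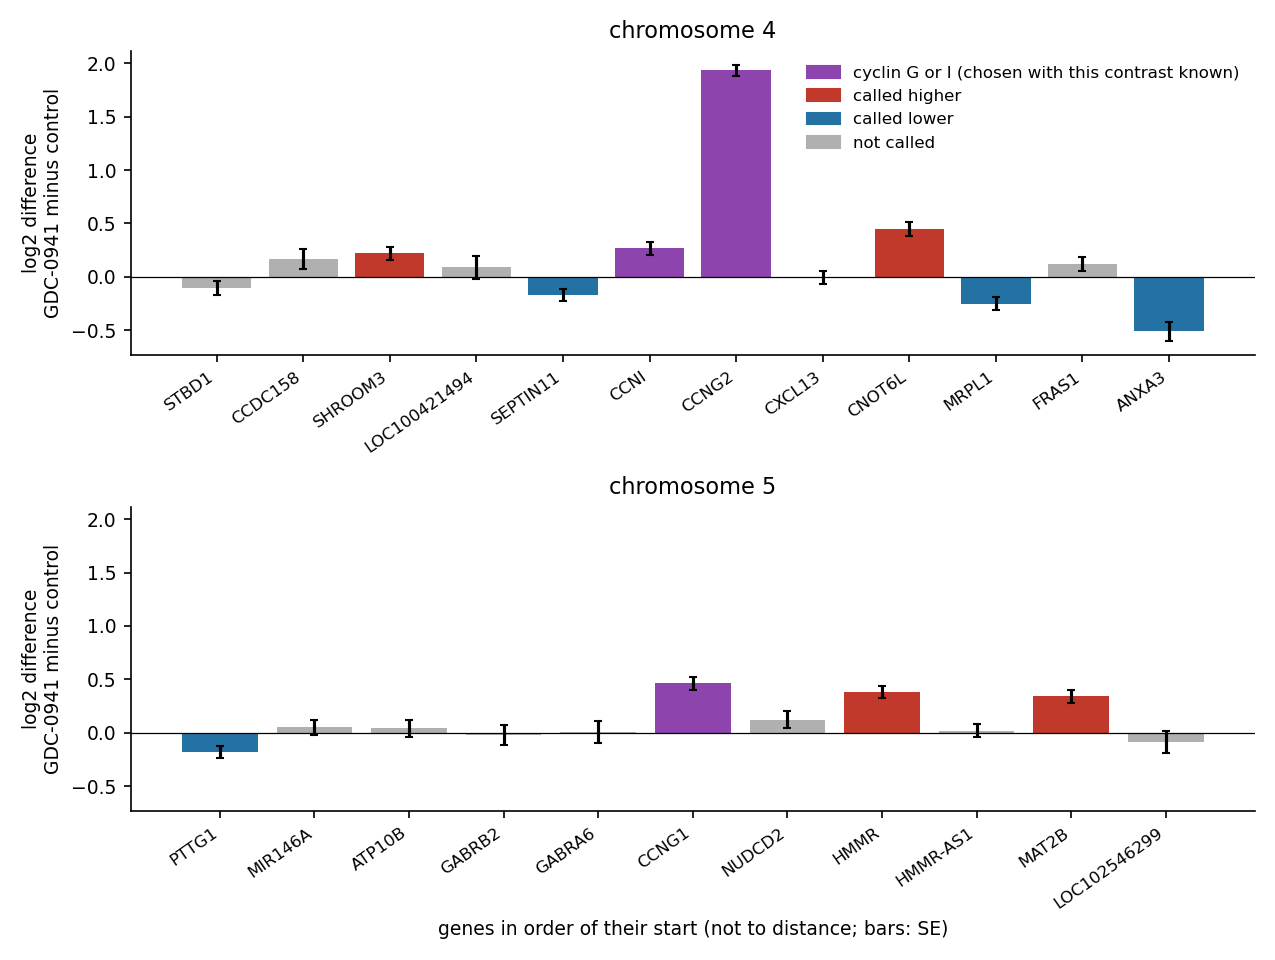
Log2 difference between GDC-0941 and control (vertical axis) of the cyclin G and I genes and their measured neighbours in genome order on chromosomes 4 and 5, by the brightest probe set of each gene, with limma standard errors as bars. CCNG2, chosen with this contrast known, stands at 1.93, and its neighbours lie between -0.51 and 0.45.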

How the data were processed

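RNA of 3 treated and 3 control T47D samples was labelled with biotin and hybridised to oligonucleotide arrays (Affymetrix), per the labels. The authors deposited 1 table of log2 signals for 54675 probe sets, and RMA is named in the submitters' processing notes without a version. That the scale is log2 was inferred from the range of the values, and no source used here states the probe set definition. After leaving out 62 control probe sets, 41091 probe sets named 1 gene, with symbols updated through Entrez identifiers and the RefSeq gene table of GRCh38.p14. A gene was represented by its probe set with the highest mean, with no filter on dim ones.

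Differences, GDC-0941 minus control, were fitted with limma 3.58.1 in R 4.3.3 (lmFit, eBayes, two-sided), with Benjamini-Hochberg adjustment over all 54613 probe sets for the members and all 19775 genes for the lists. The script was tested on simulated data first. The number of arrays, 3 per group, limits the precision, and the median standard error was 0.0692 over probe sets. The members, gene lists and naming rule were chosen with earlier results of these data known. The rule named, for each list, up to 3 called genes in each direction by size of difference, the genes directly beside a member, and the 5 nearest in pattern. Other genes named, among them the mitotic cyclins, the cyclin E genes, CCND2, CDK5, GAK, PPP2R5A, CDKN1A, BAX, SOD2 and FRAS1, were picked after their values were seen. Some listed genes are not analysed here.

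Replicate numbers were not taken as pairs in the main fit. Deviations from group means of same-numbered arrays correlated at -0.34, 0.14 and -0.03 across probe sets. Those of differently numbered arrays correlated at -0.36 to 0.35. With 3 arrays a group, whose deviations from their own mean are not independent, these values cannot show whether the samples were paired. The alternatives tried were leaving out single arrays, the replicate number as a block, other centrings, quantile normalization again, a variance trend, array weights, a level filter, other choices of probe set and a stricter threshold. Figures were drawn with matplotlib 3.10.9.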

Additional observations from a re-analysis of the deposited data

How the results depend on the processing

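Of the alternatives to the members' differences, centring each array on its 18 hybridisation controls moved 8 of 9 by more than the replicate SD, since it adds the same amount to every probe set: CCNG1 to 0.631, CCNG2 to 2.10, 2.08, 1.94 and 0.10 (202769_at, 202770_s_at, 211559_s_at and 1555056_at) and CCNI to 0.529, 0.435 and 0.214 (208655_at, 208656_s_at and 227299_at). Leaving out 1 array gave 0.428 to 0.492 for CCNG1, 1.92 to 1.95, 1.89 to 1.92, 1.74 to 1.82, -0.0988 to -0.0339 for the same CCNG2 probe sets, and 0.334 to 0.393, 0.230 to 0.298 and -0.0438 to 0.120 for CCNI. Of the members 7 stayed called under that centring and with a replicate block, and 6 at an adjusted p under 0.01.

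With the same centring 7 other cyclins rose, 1 partner fell, 1 FOXO target fell, and 8 neighbours rose and 1 fell. It also turned SEPTIN11 to 0.00142. Taking unmarked probe sets first left 2 partners and 2 neighbours higher and turned CNOT6L to -0.0481 and PPP2R1B to 0.172. With all probe sets averaged 1 partner and 2 neighbours were higher. At an adjusted p under 0.01, 2 partners were higher and 1 lower, and 2 neighbours lower. With genes above the median level, where fewer were tested, 5 other cyclins fell. Centring on the array median left 2 neighbours and 1 FOXO target lower, array weights 1 FOXO target lower, and a replicate block 2 neighbours lower. Leaving out 1 array gave 2 to 4 partners higher, 1 to 4 lower, 0 to 1 FOXO targets lower and 2 to 4 neighbours lower. Array weights raised the called genes from 2398 higher and 3090 lower to 4235 and 5176. RMA values carry no detection call, so whether the dim probe sets 1555056_at and 227299_at read a transcript is not known.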
